A study of Mus musculus with 8 samples.

Results

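The genes described here are the solute carriers, the transporter families named Slc, as measured in NMuMG, an established mouse mammary epithelial cell line. A gene was a member if its symbol began with Slc, a family number, a letter and a further number, and if its mean normalised count (read count divided by the library's size factor) over the 8 libraries was at least 20. Of the 331 genes in the table with such a symbol, 200 met this minimum, out of 18102 genes in all. They span 42 family numbers and were sorted by family into 15 substrate classes, the largest being the mitochondrial carriers with 39 members and the amino acid transporters with 27. A class follows the family number, so it can hold carriers of other substrates. Of the 200 symbols, 5 belong to proteins that are not transporters, among them the scaffold genes Slc9a3r1 and Slc9a3r2, and these were kept in the counts. The mean of Slc16a3, at 21.2, was just inside the minimum, as were Slc5a5 at 22.1 and Slc16a8 at 22.8. Slc35g2 at 19.7, Slc16a4 at 18.5 and Slc46a3 at 17.8 were just outside it.

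Solute carriers move sugars, amino acids, nucleosides, metals, inorganic ions and organic acids across membranes, either down a gradient or coupled to the movement of sodium, protons or another solute. Families Slc2 and Slc5 carry sugars and related molecules, Slc25 exchanges metabolites across the inner mitochondrial membrane, Slc30 exports zinc from the cytosol and Slc39 imports it. Mammary epithelium relies on such carriers for glucose, amino acid, iodide, zinc and phosphate supply.

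RNA was sequenced from 8 libraries that form 4 groups of 2, crossing genotype with treatment. Both genotypes were NMuMG cells serum starved for 6 h. They received either 2.5 µM SB505124, which blocks the kinase of TGFβ type I receptors, for 6 h, or 100 pM TGFβ for 1.5 h. The WT cells carry the label WT for RREB1, a zinc finger transcription factor, and the others carry the label KO. There is no untreated group, and the 2 treatments differ in both agent and duration, whose parts cannot be told apart. All KO titles share the code KO1, so genotype and clone cannot be told apart. The labels do not say that replicates came from separate cultures, so p-values measure the spread between these libraries only.

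Library totals ran from 25144204 to 32143113 reads. Rreb1 itself did not fall in the libraries labelled KO: its mean was 1044 ± 15.4 (SD, n = 2) in WT and 1335 ± 11.3 in KO-labelled cells under SB505124, and 1864 ± 134 and 2361 ± 170 under TGFβ. The limma test used below called it higher in KO-labelled cells. The log2 difference was 0.35 ± 0.08 (SE) under SB505124 (adjusted p = 0.00153) and 0.34 ± 0.08 under TGFβ (adjusted p = 0.00184). The count covers the whole gene and does not show whether a part was deleted, so a direction between genotypes rests on the labels alone. Of the luminal epithelial list, 4 of 8 markers reached a mean of 10, with summed counts of 172759 to 272013. The sums for basal, fibroblast, leukocyte, endothelial and adipocyte markers stayed at or below 693 in all libraries. Under SB505124 and TGFβ, the basal marker Krt5 had means of 0.507 and 2.77 in WT against 69.4 and 70.5 in KO-labelled cells. The basal marker Krt14 had 4.54 and 42.0 in WT and the luminal marker Epcam 6.06 and 30.4. Both were 0 in all KO-labelled libraries. The fibroblast sum rose from 161 to 163 under SB505124 to 512 to 669 under TGFβ in WT, and from 46.5 to 61.3 to 367 to 383 in KO-labelled cells. Its part in the member results was not tested.

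The sequences upstream of 4 members are shown because these genes carry the results that follow: Slc2a5 had the largest rise with TGFβ, Slc20a1 rose more in KO-labelled cells, and Slc25a30 and Slc36a4 had large falls. Each is a RefSeq window before a transcription start, read 5′ to 3′ on the gene's strand, on build GRCm38.p6, without bases that GENCODE M21 places in an exon of a protein-coding gene. Capitals mark the SMAD box, the letters CAGAC or, on the other strand, GTCTG, which SMAD proteins, the TGFβ effectors, can bind.
Slc2a5: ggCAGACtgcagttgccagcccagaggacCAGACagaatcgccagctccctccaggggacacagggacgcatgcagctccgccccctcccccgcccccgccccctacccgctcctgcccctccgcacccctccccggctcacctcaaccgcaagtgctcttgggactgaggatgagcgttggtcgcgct
Slc20a1: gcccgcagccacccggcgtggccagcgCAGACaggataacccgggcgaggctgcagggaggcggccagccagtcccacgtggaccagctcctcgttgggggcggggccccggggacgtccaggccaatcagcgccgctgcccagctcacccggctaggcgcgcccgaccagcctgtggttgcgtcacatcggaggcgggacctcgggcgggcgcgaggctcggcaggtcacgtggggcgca
Slc25a30: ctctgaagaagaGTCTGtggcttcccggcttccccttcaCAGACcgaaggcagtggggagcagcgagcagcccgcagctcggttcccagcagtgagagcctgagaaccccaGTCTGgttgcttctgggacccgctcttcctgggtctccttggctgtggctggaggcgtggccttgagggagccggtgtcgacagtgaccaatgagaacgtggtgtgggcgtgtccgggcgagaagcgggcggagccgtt
Slc36a4: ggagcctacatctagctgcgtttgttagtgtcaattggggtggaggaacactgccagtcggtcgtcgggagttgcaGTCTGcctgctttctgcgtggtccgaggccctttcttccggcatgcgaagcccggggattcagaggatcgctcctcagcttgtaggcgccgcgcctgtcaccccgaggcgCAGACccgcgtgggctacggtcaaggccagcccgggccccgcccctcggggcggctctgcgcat

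The Slc2a5 stretch lies at chr4:150119094-150119282 on the plus strand and the Slc20a1 stretch at chr2:129198523-129198763 on the plus strand. The Slc25a30 stretch lies at chr14:75787038-75787287 on the minus strand and the Slc36a4 stretch at chr9:15709488-15709737 on the plus strand. The whole 250-base window of Slc2a5 held 4 SMAD boxes, 2 of them in the part shown, against 1 for the Slc20a1 window shown, 3 for Slc25a30 and 2 for Slc36a4. At least 4 boxes were found in 0.475% of all 32851 RefSeq promoter windows of this length and in 0.980% of the 204 windows of members. Slc20a1 has 2 RefSeq windows, of which the upstream one is shown and the other holds 2 boxes. RefSeq windows were found for 152 of the 200 members. At least 1 SMAD box occurred in 47.5% of member windows and 42.2% of all windows, in 44.9% of windows of members that rose with TGFβ in WT and in 42.4% of those that fell. The E-box CACGTG occurred in 10.8% of member windows and 6.02% of all, the antioxidant response core TGACNNNGC in 16.2% and 10.2%, the metal response core TGCNCNC in 50% and 44.4%, and the AP-1 site TGACTCA in 3.43% and 4.46%, each counted on both strands. A match is a description of letters, not a site.

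Levels differed widely among the carriers. Per kilobase of annotated exon, the mean over the 8 libraries was highest for the ADP/ATP exchangers Slc25a5, at 1238, and Slc25a4, at 1013, followed by Slc3a2, the heavy chain of several amino acid exchangers, at 685. The mitochondrial phosphate carrier Slc25a3 at 461 and the zinc carrier Slc39a7 at 460 came next and lay within each other's range over libraries. The 5 highest members held 29.4% of the members' total per kilobase and the 20 highest 57.6%. Slc25a5 ranged only from 14849 to 17221 normalised counts and was called in no comparison. Across all members, 168 had a mean of at least 100 and 91 of at least 1000. The members together took 1.36% to 1.63% of the normalised counts of a library.

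TGFβ against SB505124 in WT cells asks how carrier transcripts differ when the receptor is engaged rather than blocked. In WT, 40 of 200 members rose and 59 fell (limma, adjusted p under 0.05 over 12498 tested genes), which is 49.5% of members beside 43.3% of all genes tested. Among all tested genes, 20.2% rose and 23.2% fell. In KO-labelled cells 40 members rose and 29 fell, 34.5% of members beside 30.9% of all genes, of which 15.1% rose and 15.8% fell. The median log2 fold change of members was -0.09 in WT and 0.02 in KO-labelled cells, beside -0.01 and -0.02 for all genes. Changes of at least 2-fold were fewer: 10 rises and 6 falls in WT, against 3.64% and 2.36% of all genes, and 14 rises and 4 falls in KO-labelled cells, against 4.30% and 1.40%. Members named below for the largest rises or falls of a comparison had to show no overlap in it, which is thus no added support. Leaving out WT SB505124 replicate 2 reduced the WT rises to 23 and leaving out WT TGFβ replicate 1 reduced them to 25, while the falls in KO-labelled cells came down to 19 without KO TGFβ replicate 2.

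In WT, most members moved the same way between replicates. In WT under TGFβ, 153 of 200 members (76.5%) were lower in replicate 2 than in replicate 1, where 46.7% of all tested genes were. Under SB505124 in WT the share was 75.0%, beside 47.7% of all genes. In the KO-labelled libraries the shares were 45.5% under SB505124 and 62.0% under TGFβ, beside 55.5% and 52.2%. The summed level per kilobase was lowest in WT TGFβ replicate 2 among the 4 WT libraries in 14 of 15 classes. The exception was the largest class, the mitochondrial carriers, whose sum was higher in replicate 2 of both WT treatments. It was 4349 and 4572 under SB505124 and 4070 and 4280 under TGFβ. What part the shift of most members has in the counts of rises and falls in WT was not tested.

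**Figure D1:**
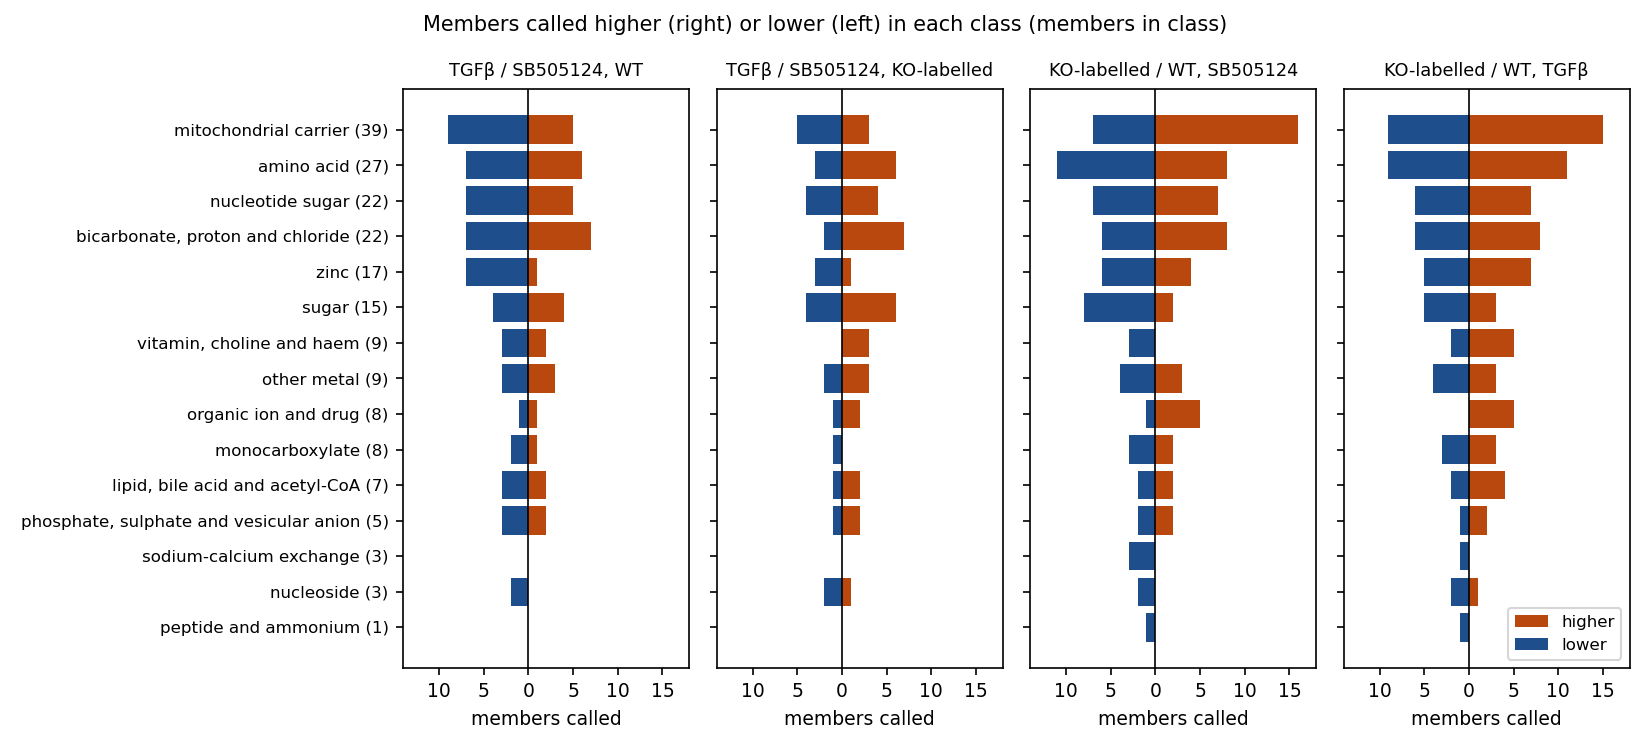
Number of members called higher (bars to the right) or lower (bars to the left) in each substrate class, for 4 comparisons of 2 libraries against 2, with the number of members in each class in parentheses. In WT the zinc class shows 7 members lower and 1 higher with TGFβ, where 23.2% and 20.2% of all tested genes were called, and the mitochondrial carriers show 16 higher and 7 lower in KO-labelled cells under SB505124, where 29.2% and 27.7% were.

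Among sugar carriers, TGFβ was accompanied by a rise of Slc2a5, the fructose transporter. Its normalised counts were 15.2 and 20 in WT under SB505124 and 342 and 291 under TGFβ, and 6.51 and 1.73 against 142 and 137 in KO-labelled cells. The treated libraries lay far above the inhibited ones in both genotypes, and at each treatment the WT libraries lay above the KO-labelled ones. The group means under SB505124, 17.6 and 4.12, were below the membership minimum, so the gene entered the set through its treated libraries. The log2 fold change was 4.10 ± 0.34 (SE) in WT (adjusted p = 2.26e-08) and 4.96 ± 0.34 in KO-labelled cells (adjusted p = 1.09e-09), the largest of any member in each. Slc37a1, a sugar phosphate exchanger of the endoplasmic reticulum, went from 49.7 and 46.1 to 191 and 149 in WT and from 48.4 and 42.3 to 216 and 203 in KO-labelled cells. No library under TGFβ overlapped those under SB505124 (log2 fold change 1.79 ± 0.18 and 2.18 ± 0.18), which the rule for naming genes required within each genotype. The genotypes overlapped under the inhibitor. The main basal glucose transporter gene Slc2a1 did not pass the test in WT, with 3915 and 3790 against 4606 and 4104 (log2 0.17 ± 0.09, adjusted p = 0.111), and rose in KO-labelled cells from 1718 and 1885 to 2573 and 2291 (0.43 ± 0.09, adjusted p = 7.43e-04). Whether these 2 responses differ was tested and not called (adjusted p = 0.293).

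Of the 15 members in the sugar families, 4 rose and 4 fell in WT, beside 20.2% and 23.2% of all tested genes. In KO-labelled cells 6 rose and 4 fell, beside 15.1% and 15.8%. The falls include Slc5a6, which carries biotin, pantothenate and lipoate rather than sugar, from 1292 and 1283 to 694 and 632 in WT and from 1039 and 1139 to 684 and 577 in KO-labelled cells. Its treated libraries lay below all inhibited ones (log2 -0.96 ± 0.10 and -0.79 ± 0.10), which the rule for naming genes required within each genotype. An exon of Slc5a6 overlaps Atraid on the other strand over 242 bases, and the library kit does not mark strand. The glucose-uptake regulator Txnip, from a list of 31 companion genes of which 28 were tested, was 675 and 627 against 298 and 279 in WT.

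In the phosphate and vesicular anion families, Slc17a4, a phosphate and organic anion carrier, rose from 3.04 and 5.01 to 48.4 and 50.3 in WT and from 13.0 and 10.4 to 71.2 and 50.2 in KO-labelled cells. Groups did not overlap by treatment (log2 3.35 ± 0.34, adjusted p = 3.39e-07, and 2.27 ± 0.34, adjusted p = 4.09e-05), which the rule for naming genes required in KO-labelled cells. Its group mean under the inhibitor in WT was under 5, so the gene entered the set through its treated libraries. Slc16a9, a carnitine and creatine carrier of the monocarboxylate family, stood at 28.4 and 14 in WT under SB505124 and 138 and 136 under TGFβ (log2 2.72 ± 0.49, adjusted p = 1.99e-04). Its KO-labelled group means were 0.465 under SB505124 and 1.99 under TGFβ, so it entered the set through its treated WT libraries. Its KO-labelled libraries held 1 read in all under SB505124 and 4 under TGFβ, a ratio of 4.43 with an exact 95% counting interval of 0.439 to 218. The lactate and pyruvate transporter Slc16a1 passed the test for TGFβ in neither genotype, nor did the lactate exporter Slc16a3, which held at most 32.6 normalised counts in any library. In all, 11 of 200 members had a group mean under 5.

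Ion transporters of the bicarbonate, proton and chloride families rose and fell in equal number in WT, 7 of 22 each way, beside 20.2% and 23.2% of all tested genes. In KO-labelled cells 7 rose and 2 fell, beside 15.1% and 15.8%. Slc4a11, a proton-conducting member of the bicarbonate family, rose from 110 and 94.1 to 458 and 389 in WT and from 110 and 114 to 433 and 449 in KO-labelled cells. The genotypes lay close together at each treatment. The treatments did not overlap (log2 2.04 ± 0.14 and 1.97 ± 0.14), which the rule for naming genes required within each genotype. Slc9a2, a sodium-proton exchanger, went from 82.1 and 66.1 to 185 and 160 and from 27 and 28.5 to 89.5 and 85.1 (1.21 ± 0.19 and 1.62 ± 0.19). In the other direction, the sulphate carrier Slc26a2 fell from 1440 and 1362 to 473 and 514 in WT. In KO-labelled cells it fell from 9473 and 8252 to 2958 and 2471, so that its treated KO-labelled libraries still lay above all WT libraries. The log2 fold changes were -1.5 ± 0.10 (adjusted p = 4.55e-10) and -1.71 ± 0.10 (adjusted p = 5.29e-11), the largest falls of any member. The sodium-potassium-chloride cotransporter Slc12a2 fell from 18500 and 18223 to 11973 and 11717 in WT (-0.63 ± 0.08) and from 20886 and 19782 to 17452 and 15436 in KO-labelled cells (-0.31 ± 0.08). The WT fall was called under every alternative run, and the KO-labelled fall lost its call in 2 of 18.

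**Figure D2:**
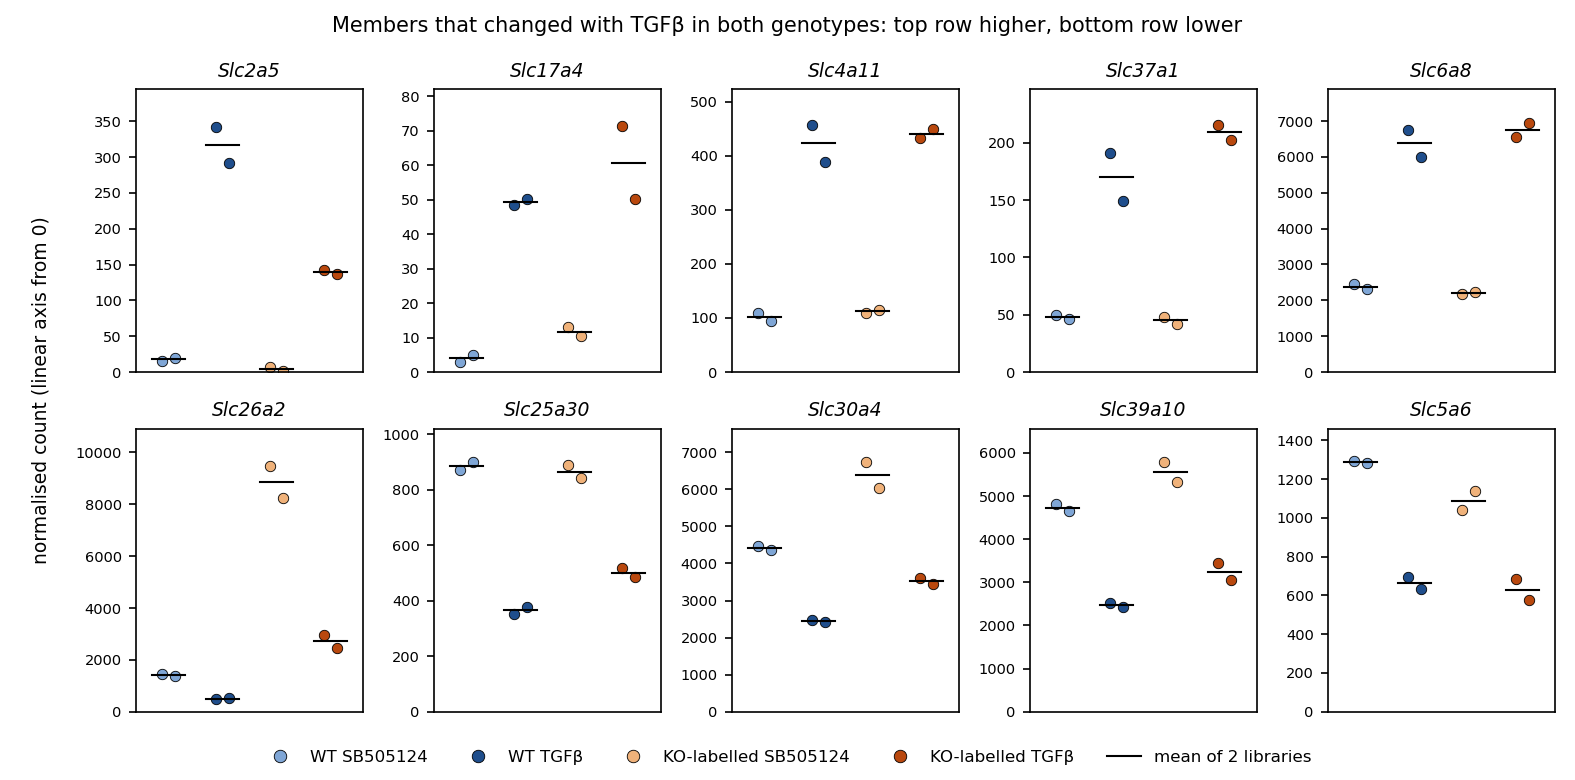
Normalised counts (linear axes from 0) in each of the 8 libraries for 10 members called in both genotypes. Points are libraries and lines are means of 2; in the top row both TGFβ groups lie above their SB505124 groups, and in the bottom row below them, with Slc26a2 in KO-labelled cells at 9473 and 8252 falling to 2958 and 2471.

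Amino acid carriers changed in both directions. The creatine transporter Slc6a8 rose from 2444 and 2321 to 6763 and 5994 in WT and from 2163 and 2228 to 6545 and 6940 in KO-labelled cells. Its 4 treated libraries lay above its 4 inhibited ones (log2 1.42 ± 0.08, adjusted p = 8.60e-11, and 1.62 ± 0.08, adjusted p = 1.01e-11), which the rule for naming genes required within each genotype. The light chains Slc7a6 and Slc7a7, which pair with Slc3a2 to exchange cationic and neutral amino acids, rose in both genotypes. Slc7a6 went from 8401 and 7900 to 13043 and 12057 in WT and from 8652 and 8571 to 15946 and 15147 in KO-labelled cells, with no overlap between treatments. Slc7a7 went from 160 and 132 to 246 and 271 and from 178 and 209 to 435 and 389. Their log2 fold changes in WT were 0.62 ± 0.08 and 0.82 ± 0.14, and in KO-labelled cells 0.85 ± 0.08 and 1.09 ± 0.14. Slc3a2 itself did not pass the test for TGFβ, with log2 -0.18 ± 0.09 in WT and 0.10 ± 0.09 in KO-labelled cells. Slc7a7 shares 232 bases of exon with Oxa1l on the other strand.

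Of the 27 amino acid members, 6 rose and 7 fell in WT, 22.2% and 25.9%, beside 20.2% and 23.2% of all tested genes. In KO-labelled cells 6 rose and 3 fell, 22.2% and 11.1%, beside 15.1% and 15.8%. Slc36a4, an amino acid carrier of the proton-assisted family, fell from 290 and 304 to 120 and 126 in WT and from 566 and 522 to 388 and 290 in KO-labelled cells. The treated WT libraries were the lowest of the 8 (log2 -1.27 ± 0.14, adjusted p = 6.31e-07, and -0.69 ± 0.14, adjusted p = 6.22e-04). The taurine transporter Slc6a6 fell from 21366 and 20151 to 12967 and 11653 in WT and from 32177 and 32437 to 26885 and 22699 in KO-labelled cells (-0.76 ± 0.09 and -0.39 ± 0.09). The cystine-glutamate exchanger Slc7a11 fell in WT, from 1062 and 1011 to 739 and 703 (-0.52 ± 0.09, adjusted p = 2.03e-04). In KO-labelled cells it was 619 and 583 against 542 and 585 (-0.09 ± 0.09, adjusted p = 0.495), and the difference of the 2 responses was not called (adjusted p = 0.0917). The glutamine transporter Slc1a5 and the leucine transporter Slc7a5 passed the test for TGFβ in neither genotype. Slc38a2, a glutamine and alanine transporter induced by amino acid lack, fell in WT from 12099 and 11063 to 9253 and 8831 (-0.36 ± 0.08). In KO-labelled cells it had 9556 and 8804 against 9531 and 8809 and was not called (adjusted p = 0.993), nor was the difference of the responses (adjusted p = 0.119).

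Of the 17 zinc carriers, 7 fell and 1 rose in WT, where 23.2% of all tested genes fell and 20.2% rose. In KO-labelled cells 3 fell and 1 rose, beside 15.8% and 15.1% of all genes. Slc39a10, a plasma membrane zinc importer, fell from 4818 and 4649 to 2531 and 2423 in WT and from 5796 and 5332 to 3438 and 3047 in KO-labelled cells (-0.93 ± 0.08 and -0.78 ± 0.08). Slc30a4, which exports zinc into vesicles, fell from 4459 and 4361 to 2471 and 2409 and from 6724 and 6042 to 3605 and 3442 (-0.85 ± 0.08 and -0.86 ± 0.08). Slc30a1, the zinc exporter of the plasma membrane, was 920 and 880 against 699 and 635 in WT and 945 and 968 against 665 and 657 in KO-labelled cells, a fall in both (-0.43 ± 0.09 and -0.53 ± 0.09). An exon of Slc30a1 overlaps 1700034H15Rik on the other strand over 468 bases. All 3 zinc carriers had treated libraries below every inhibited library of the same genotype, which the rule for naming genes required of Slc39a10 and Slc30a4. An importer and exporters are both among these 3. The sole rise was Slc39a13, a Golgi zinc carrier, at 1278 and 1051 against 1767 and 1318 in WT (0.40 ± 0.13, adjusted p = 0.0201), whose exons overlap Psmc3 on the other strand over 147 bases. Slc39a14, a zinc and iron importer, was called in no comparison. The zinc-binding metallothionein gene Mt1 was 4009 and 4407 against 3290 and 3382 in WT and 2117 and 2455 against 1596 and 1830 in KO-labelled cells.

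Other metal carriers were mixed, with 3 of 9 higher and 3 lower in WT, beside 20.2% and 23.2% of all tested genes. In KO-labelled cells 3 were higher and 2 lower, beside 15.1% and 15.8%. Slc11a1, a divalent metal carrier of endosomes, rose from 179 and 146 to 387 and 302 in WT and from 310 and 372 to 652 and 605 in KO-labelled cells (1.07 ± 0.14 and 0.88 ± 0.14). The iron exporter Slc40a1 fell from 1201 and 1246 to 755 and 945 in WT and from 2372 and 2265 to 1574 and 1467 in KO-labelled cells (-0.53 ± 0.10 and -0.61 ± 0.10). Leukocyte marker sums were 488 to 693 in the 8 libraries, with 3 of 6 such markers at a mean of 10.

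Of the 39 mitochondrial carriers, 5 rose and 9 fell in WT, 12.8% and 23.1%, beside 20.2% and 23.2% of all tested genes. In KO-labelled cells 3 rose and 5 fell, 7.69% and 12.8%, beside 15.1% and 15.8%. Slc25a30, a carrier of the inner membrane, fell from 873 and 900 to 352 and 378 in WT and from 888 and 842 to 518 and 484 in KO-labelled cells. The genotypes overlapped under the inhibitor and not under TGFβ (log2 -1.28 ± 0.10, adjusted p = 5.69e-09, and -0.79 ± 0.10, adjusted p = 3.48e-06). The difference of these responses, 0.49 ± 0.14, did not pass (adjusted p = 0.0627). The glutamate carrier Slc25a22 rose, and is described with the differing responses. In the nucleoside class Slc29a2, an equilibrative nucleoside transporter, fell from 939 and 889 to 518 and 418 in WT and from 547 and 690 to 344 and 371 in KO-labelled cells (-0.97 ± 0.12 and -0.78 ± 0.12).

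Lipid carriers included a rise of the fatty acid transport protein gene Slc27a1, from 257 and 217 to 534 and 448 in WT and from 20.5 and 27.6 to 60.6 and 67.7 in KO-labelled cells. The WT libraries under either treatment lay above all KO-labelled ones (log2 for TGFβ 1.04 ± 0.18 and 1.39 ± 0.18). The bile acid transporter Slc10a2 fell from 36.5 and 34.0 to 14.7 and 12.6 in WT and from 172 and 176 to 64.5 and 58.4 in KO-labelled cells (-1.31 ± 0.22 and -1.49 ± 0.22). Here the order of the genotypes was the opposite, with all KO-labelled libraries above all WT ones.

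The TGFβ responses of both genotypes, which share no libraries, were set side by side. Of the 200 members, 30 rose in both and 29 fell in both, 15% and 14.5%, beside 11% and 12.5% of all genes tested. All 29 members that fell in KO-labelled cells also fell in WT, where they are 49.2% of those that fell. Among all genes the shared falls are 79.3% of the KO-labelled falls and 54.1% of the WT falls. The 30 shared rises are 75.0% of the members' rises in each genotype, while among all genes the shared rises are 54.4% of the WT rises and 72.6% of the KO-labelled ones. No member was called in opposite directions, while 24 of the 12498 genes were. Across members the responses had a Pearson r of 0.87, n = 200 genes that share the same libraries, and across all tested genes 0.80.

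**Figure D3:**
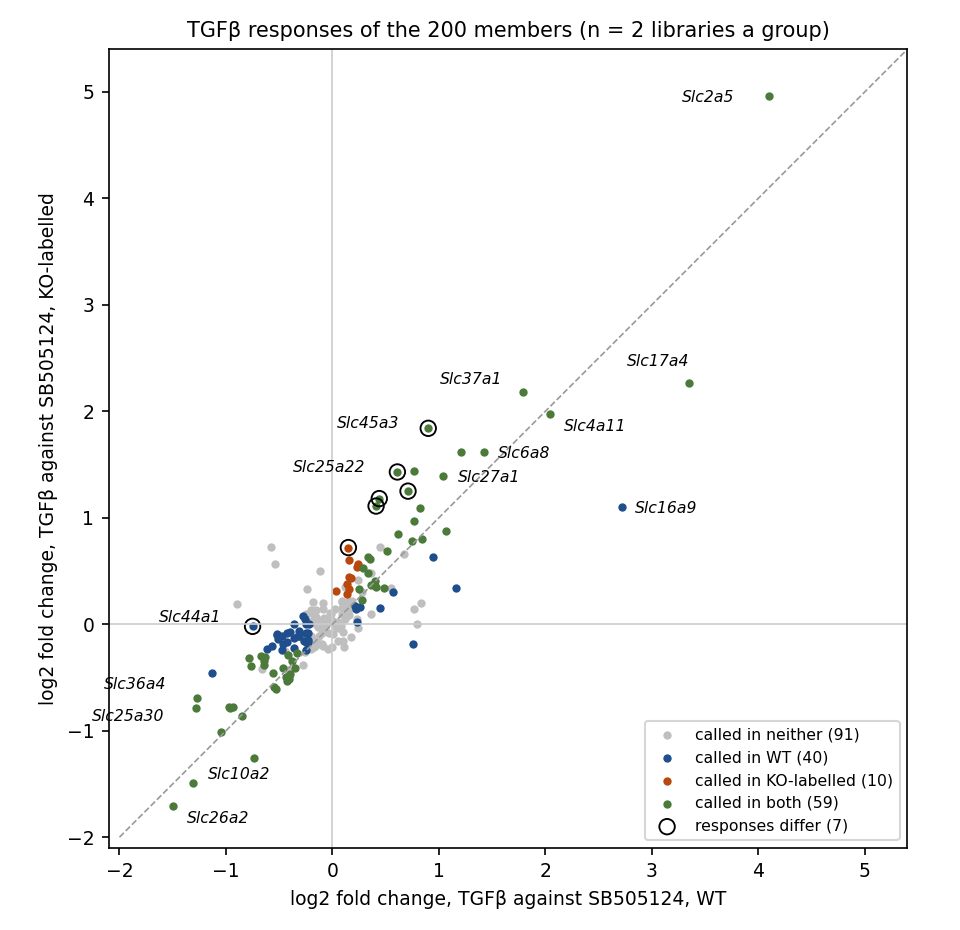
Log2 fold change of TGFβ against SB505124 in WT (horizontal) and in KO-labelled cells (vertical) for the 200 members, coloured by call, with rings on the 7 members whose responses differed and the dashed line marking equal responses. Slc2a5 lies at 4.10 and 4.96, and the 7 ringed members all lie above the line.

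The difference of the TGFβ responses, KO-labelled minus WT, asks which carriers respond unequally. It was called for 7 members, 3.5% of them beside 2.82% of all genes, and in all 7 the response was higher in KO-labelled cells. In that direction the share of all genes was 2.25%, and 0.568% were called the other way. None of the 7 differences reached 2-fold, as 0.456% of all genes did in that direction. No member was called lower by limma, edgeR or DESeq2. At an unadjusted limma p under 0.05, 5 members were lower and 35 higher. The share of all genes at that threshold was not counted, so these 2 counts have no background beside them. The point estimate was above 0 for 136 of 200 members (68.0%), beside 52.8% of all genes, with a median of 0.11 beside 0.01. The count depended on single libraries: none was called without WT SB505124 replicate 1 and 1 without KO TGFβ replicate 1, while 23 were called without WT TGFβ replicate 1. Each of the 7 calls was lost in at least 3 of 17 alternatives, the fit without WT SB505124 replicate 1 among them. Members were also lower in replicate 2 of each WT treatment in the shares given above.

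The largest difference was that of Slc45a3, a proton-coupled sugar transporter. It went from 142 and 140 to 283 and 247 in WT and from 71.7 and 74.3 to 269 and 260 in KO-labelled cells. The genotypes overlapped under TGFβ and not under the inhibitor, and the difference of responses was 0.94 ± 0.20 on the log2 scale (adjusted p = 0.0114). Slc25a22, the mitochondrial glutamate carrier, went from 1059 and 954 to 1738 and 1362 in WT and from 963 and 1106 to 2696 and 2872 in KO-labelled cells. Here the genotypes overlapped under the inhibitor and not under TGFβ (difference 0.82 ± 0.15, adjusted p = 0.00379).

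Slc20a1, a sodium-phosphate cotransporter, went from 4482 and 4100 to 7290 and 6716 in WT and from 3002 and 3089 to 7330 and 7195 in KO-labelled cells. Its levels under TGFβ overlapped, and the inhibited KO-labelled libraries were the lowest (difference 0.55 ± 0.11, adjusted p = 0.00801).

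Slc23a2, a sodium-coupled vitamin C transporter, was called for TGFβ in KO-labelled cells, from 1652 and 1646 to 2894 and 2566, and not in WT, from 1905 and 1763 to 2063 and 1991. The difference itself was 0.58 ± 0.12 (adjusted p = 0.00801). Slc44a1, a choline transporter, fell in WT from 1138 and 1065 to 675 and 637 and was 840 and 826 against 900 and 746 in KO-labelled cells. It is the member called in opposite directions between genotypes, lower in KO-labelled cells under SB505124 (-0.40 ± 0.10) and higher under TGFβ (0.32 ± 0.10), with a difference of responses of 0.72 ± 0.14 (adjusted p = 0.00583). Slc35e4, an orphan of the nucleotide sugar family, was 3196 and 3018 against 4892 and 3622 in WT and 1798 and 2444 against 4710 and 4814 in KO-labelled cells. The WT replicates under TGFβ were far apart, and its difference of 0.74 ± 0.18 (adjusted p = 0.0285) lost its call in 10 of 17 alternatives.

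**Figure D4:**
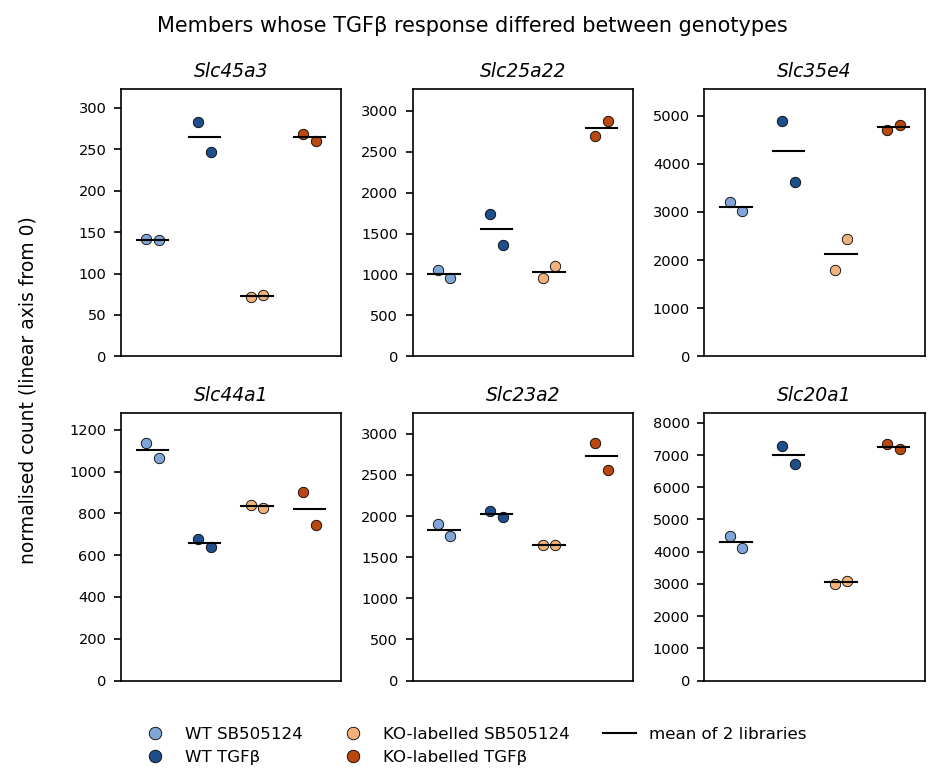
Normalised counts (linear axes from 0) in each library for 6 of the 7 members whose TGFβ response differed between genotypes. Points are libraries and lines are means of 2; for Slc45a3 and Slc20a1 the KO-labelled SB505124 libraries are the lowest of the 8, and for Slc25a22 and Slc23a2 the KO-labelled TGFβ libraries are the highest.

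KO-labelled against WT cells under the same treatment asks how carrier levels differ between the genotypes. Under SB505124, 61 members were higher and 66 lower in KO-labelled cells, 63.5% of members beside 56.9% of all genes, of which 29.2% were higher and 27.7% lower. Under TGFβ 76 were higher and 57 lower, 66.5% beside 62.9%, with 32.7% and 30.2% of all genes. At least 2-fold differences were found for 15 members higher and 22 lower under SB505124, beside 6.71% and 8.33% of all genes, and for 17 higher and 18 lower under TGFβ, beside 8.07% and 8.38%. The 2 comparisons share no libraries: 54 members were higher under both treatments and 52 lower, 27% and 26% of members beside 25.2% and 23.2% of all genes, and 1 member, Slc44a1, was called in opposite directions. A difference of this kind can belong to the clone, which was not tested.

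Several carriers were close to silent in the KO-labelled libraries. The 5 described here had KO-labelled group means of at most 6.21, so they entered the set through their WT libraries and had to differ between genotypes. Slc38a1, a glutamine transporter, had 3849, 3412, 3297 and 2848 normalised counts in the 4 WT libraries and at most 2.05 in any KO-labelled library. Under SB505124 the KO-labelled libraries held 1 read of it in all against 7205 in WT, a ratio of 8102 with an exact 95% counting interval of 1454 to 320048, and under TGFβ 2 reads against 5624. Slc35f2, a carrier of the nucleotide sugar family, had 694, 619, 593 and 587 in WT and no read in any KO-labelled library. With a floor of 3 reads over the group it was at least 488-fold lower under SB505124 and at least 396-fold lower under TGFβ. Slc6a17, a neutral amino acid transporter of synaptic vesicles, had 54.7, 43.1, 90.5 and 78.9 in WT and no read in KO-labelled cells, at least 36.4-fold and 57.0-fold lower.

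Slc7a4, an orphan of the cationic amino acid family, had 92.2, 87.1, 87.4 and 74.3 in WT and at most 0.963 in KO-labelled libraries, a ratio of 200 under SB505124 (interval 35.5 to 7950) and 163 under TGFβ (28.9 to 6495). Its exons overlap P2rx6 on the other strand over 200 bases. The sodium-calcium exchanger Slc8a1 had 147, 160, 94.7 and 99.4 in WT and 4.65, 7.77, 2.89 and 6.15 in KO-labelled libraries (log2 -4.45 ± 0.33 under SB505124 and -4.22 ± 0.33 under TGFβ). None of these 5 genes had overlapping genotypes. Of the 10 tested genes on either side of these 5 genes, 4 were called lower in KO-labelled cells under SB505124, 3 higher and 3 in neither direction. Of all tested genes, 27.7% were lower and 29.2% higher. The lower neighbours were Pkdcc beside Slc8a1 (log2 -0.91 ± 0.17), Elmod1 beside Slc35f2 (-0.56 ± 0.09), Smpd4 beside Slc7a4 (-0.34 ± 0.08) and Slc38a2 beside Slc38a1 (-0.33 ± 0.08). The higher ones were Thumpd2 beside Slc8a1 (0.42 ± 0.14), Cul5 beside Slc35f2 (0.28 ± 0.09) and Scaf11 beside Slc38a1 (0.23 ± 0.09). Whether neighbouring genes differ together was not tested.

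The reverse was seen for Slc38a3, another glutamine transporter, with 0, 1.00, 0 and 2.29 in WT and 65.1, 70.0, 86.6 and 104 in KO-labelled libraries. The ratio was 134 under SB505124 (exact 95% counting interval 23.7 to 5339) and 86.5 under TGFβ (23.6 to 720). Slc7a9, a light chain that carries cystine, had 6.08, 4.01, 2.11 and 2.29 in WT and 69.8, 59.6, 83.8 and 64.6 in KO-labelled libraries (log2 3.46 ± 0.36 and 4.54 ± 0.36). Both genes had means under 5 or close to it in WT and so entered the set through the KO-labelled libraries. Of the 27 amino acid members, 11 were lower and 8 higher in KO-labelled cells under SB505124, beside 27.7% and 29.2% of all tested genes. Under TGFβ 9 were lower and 11 higher, beside 30.2% and 32.7%.

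**Figure D5:**
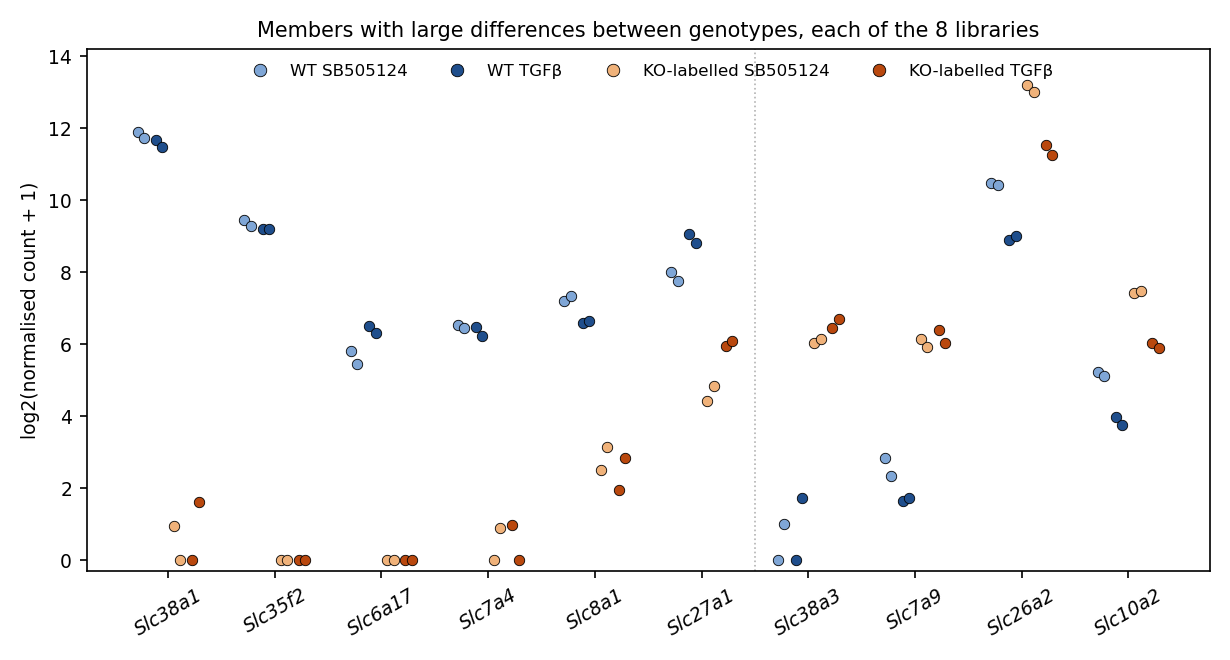
Log2 of normalised count plus 1 in each of the 8 libraries for 10 members with large differences between genotypes, lower in KO-labelled cells to the left of the dotted line and higher to its right. Slc35f2 and Slc6a17 lie at 0 in all KO-labelled libraries, and Slc38a3 has at most 2.29 normalised counts in WT.

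The light chains Slc7a5 and Slc7a11 and their shared heavy chain went opposite ways between genotypes. Slc3a2 was higher in KO-labelled cells, at 15855 and 14965 in WT against 21123 and 24007 under SB505124 and 14489 and 12711 against 24613 and 23603 under TGFβ (log2 0.55 ± 0.09 and 0.83 ± 0.09). Its partner Slc7a5, the leucine exchanger, was lower, at 10897 and 9922 against 4941 and 5687 and at 9832 and 8517 against 6384 and 5850 (-0.97 ± 0.09 and -0.58 ± 0.09). Slc7a11, the cystine partner, was lower too (-0.79 ± 0.09 and -0.36 ± 0.09). Other partners were higher like Slc3a2: Slc7a7 under both treatments (0.40 ± 0.14 and 0.67 ± 0.14), and Slc7a6 under TGFβ (0.31 ± 0.08) but not called under SB505124 (0.08 ± 0.08, adjusted p = 0.410). The genotypes of Slc3a2 and Slc7a5 did not overlap under either treatment. The glutamine transporter Slc1a5 was at 4947 and 4615 in WT against 2531 and 2804 under SB505124 (-0.84 ± 0.09), and at 4460 and 3861 against 2348 and 2189 under TGFβ (-0.87 ± 0.09).

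Among other classes, Slc26a2 was higher in KO-labelled cells by log2 2.66 ± 0.10 under SB505124 and 2.45 ± 0.10 under TGFβ, and Slc10a2 by 2.27 ± 0.22 and 2.09 ± 0.22. The sodium-bicarbonate cotransporter Slc4a4 had 2348, 2084, 1727 and 1569 in WT and 6431, 6108, 6488 and 5447 in KO-labelled libraries (1.50 ± 0.09 and 1.85 ± 0.09). The intestinal-type zinc importer Slc39a4 had 4047, 3942, 4146 and 3415 in WT and 9409, 11125, 11860 and 11651 in KO-labelled libraries (1.36 ± 0.10 and 1.64 ± 0.10). Every KO-labelled library of these 4 genes lay above every WT library of the same treatment. The rule for naming genes required this, except of Slc39a4 under SB505124. Of the 17 zinc members, 4 were higher and 6 lower under SB505124, beside 29.2% and 27.7% of all tested genes. Under TGFβ 7 were higher and 5 lower, beside 32.7% and 30.2%.

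Of the 39 mitochondrial carriers, 16 were higher and 7 lower in KO-labelled cells under SB505124, beside 29.2% and 27.7% of all tested genes. Under TGFβ 15 were higher and 9 lower, beside 32.7% and 30.2%. The ornithine carrier Slc25a15 had 946, 967, 883 and 983 in WT and 2724, 2353, 2217 and 2094 in KO-labelled libraries (1.40 ± 0.09 and 1.21 ± 0.09). Slc25a45, a less abundant carrier of this family, had 23.3, 26.0, 55.8 and 57.1 in WT and 4.65, 4.32, 5.78 and 6.15 in KO-labelled libraries (-2.23 ± 0.36 and -3.05 ± 0.36). Its KO-labelled group means were 4.49 and 5.96, so it entered the set through its WT libraries and had to differ between genotypes. The genotypes of Slc25a15 did not overlap, which the rule for naming genes required under SB505124. The fatty acid carrier Slc27a1 was lower in KO-labelled cells by the counts given above (-3.26 ± 0.18 and -2.91 ± 0.18). The scaffold gene Slc9a3r1, which is not a transporter, was higher, with 2373, 2578, 2066 and 2242 in WT and 6613, 7268, 6418 and 6395 in KO-labelled libraries (1.49 ± 0.08 and 1.57 ± 0.08).

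Members on chromosome 4 were mostly lower in KO-labelled cells. Of 12 such members, 11 were called lower and 1 higher under SB505124, beside 27.7% and 29.2% of all tested genes. Under TGFβ 10 were lower and 2 higher, beside 30.2% and 32.7%. The share called among all genes of chromosome 4 was not counted. The median log2 difference of the 12 members under TGFβ was -0.62, and that of all tested genes on chromosome 4 was -0.68. Under SB505124 the median of the members was -0.94, and that of all 752 tested genes on chromosome 4 was -0.69, while the median was -0.62 on chromosome 14 and between -0.05 and 0.25 on the others. They include Slc2a1 (-1.10 ± 0.09), Slc2a5 (-2.03 ± 0.34), the CMP-sialic acid transporter Slc35a1 (-1.17 ± 0.08), the glycine transporter Slc6a9 (-1.12 ± 0.12) and the copper transporters Slc31a1 (-0.47 ± 0.08) and Slc31a2 (-1.15 ± 0.12). Slc6a9 shares 1258 bases of exon with Ccdc24 on the other strand. Slc35d1, a nucleotide sugar transporter on the same chromosome, was higher (0.54 and 0.92). The part of the chromosome-wide shift in these differences was not tested. Outside chromosomes 4 and 14, 53 of 183 members were lower and 59 higher under SB505124, 29.0% and 32.2%, beside 22.6% and 31.7% of the 11239 tested genes placed there. Under TGFβ 45 were lower and 72 higher, 24.6% and 39.3%, beside 25.7% and 35.2%.

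The 31 companion genes encode chaperones, regulators and carriers outside the Slc names. Of 28 tested, 6 rose and 11 fell with TGFβ in WT, beside 20.2% and 23.2% of all tested genes, and 3 rose and 10 fell in KO-labelled cells, beside 15.1% and 15.8%. None was called for the difference of responses by limma, edgeR or DESeq2, with 7 at an unadjusted limma p under 0.05 (6 higher, 1 lower), a threshold at which all genes were not counted. Sgk1, a kinase that regulates many carriers, rose from 1489 and 1382 to 2438 and 2510 in WT and from 649 and 552 to 1346 and 1212 in KO-labelled cells. Slco4a1, an organic anion transporter, fell from 1822 and 1718 to 974 and 840 and from 1752 and 1859 to 1148 and 1124. Between genotypes, 8 companions were higher and 10 lower in KO-labelled cells under SB505124, beside 29.2% and 27.7% of all genes, and 10 higher and 9 lower under TGFβ, beside 32.7% and 30.2%. The sodium pump subunit Atp1b1 had 7062, 6608, 7169 and 6494 in WT and 12655, 12294, 15778 and 14857 in KO-labelled libraries, with no overlap.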

How the data were processed

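RNA was sequenced from NMuMG cells in 8 libraries, 2 in each of 4 groups, made with a TruSeq RNA v2 kit that does not mark strand, per the labels' protocols. The deposited table holds a signal value per gene and library, in the authors' unit of read counts divided by size factors, and no column was left out. FastQC 0.11.5, HTSeq 0.6.1p1, DESeq2 3.4 and the build mm10 were used per the submitters' processing notes, and the aligner is not given in the sources used here. Each deposited signal value was a whole multiple of the library's step (100% within 0.01 reads), so reads were recovered for the count-based alternatives.

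Genes with a mean of at least 10 (12498 of 18102) were tested on log2(value + 1), a scale that understates the change of low genes. All 200 members passed this filter. The 4 group means were fitted to all 8 libraries with limma 3.58.1 in R 4.3.3 with a variance trend (4 residual and 14.3 prior degrees of freedom). P-values were adjusted by Benjamini-Hochberg over all tested genes of each of the 5 contrasts, threshold 0.05, and errors after log2 fold changes are model SEs. Alternatives were pseudocounts of 0.5 and 8, filters, no trend, only the groups compared, TMM scaling, edgeR 4.0.16, DESeq2 1.42.0, a replicate block, members outside chromosomes 4 and 14, and each library left out.

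The members, classes, companion genes and the rule for named genes were chosen with earlier results of these data known. The rule named 15 carriers whatever their values, the 10 largest rises and falls of each comparison among called members that did not overlap and reached a mean of 50 in the higher group, the most abundant member of each class per kilobase, the member with the smallest p in each class and response, and up to 6 companions a comparison. Other genes named were chosen after their values were seen, and not all genes that the rule names are printed; the values of 1 member are not reported here. Coordinates and exon lengths come from the GENCODE M21 annotation (build GRCm38, the same as mm10), which held all 200 symbols, and promoter windows are from RefSeq on GRCm38.p6. Where a group held no read, a floor of 3 reads over the group gives a bound, and for 1 to 3 reads the ratio has an exact 95% interval; both cover counting error only.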

Additional observations from a re-analysis of the deposited data

Results flagged for a closer look

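The TGFβ response differed between genotypes, by the limma test of the difference itself, for 7 members, each with the higher fold change in the KO-labelled cells. For 6 of them the differences in log2 fold change were 0.94 for Slc45a3, 0.82 for Slc25a22, 0.74 for Slc35e4, 0.72 for Slc44a1, 0.58 for Slc23a2 and 0.55 for Slc20a1. Slc44a1 lies on chromosome 4, whose tested genes had a median log2 difference of -0.69 between genotypes under SB505124, and the part of this shift in its difference was not tested. All 7 calls were lost without WT SB505124 replicate 1.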

How the results depend on the processing

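The number of members with differing responses, 7, moved to 2 when every gene of the table was tested and to 1 without the variance trend; the cause was not tested. Leaving out each library in turn gave 0 to 23, with 0 without WT SB505124 replicate 1, 1 without KO TGFβ replicate 1 and 23 without WT TGFβ replicate 1. The other 4 counts stayed within 1.5 times under every alternative run: 99 members for TGFβ in WT became 71 to 101 with a library left out, 69 in KO-labelled cells 50 to 82, 127 under SB505124 104 to 134 and 133 under TGFβ 111 to 134. With the replicate number as a block, the counts were 101, 68, 6, 123 and 132 in the order WT response, KO-labelled response, difference, SB505124 and TGFβ. Same-numbered libraries of the 2 treatments deviated together with r = 0.198 in WT and 0.102 in KO-labelled cells, and those of the 2 genotypes with -0.049 under SB505124 and -0.025 under TGFβ; with 2 pairs a comparison, the libraries share only a number. Of 125 results for named members, 110 kept their direction and call in all alternatives, 15 lost the call in at least 1 and 0 reversed. Those lost include Slc16a3 under TGFβ between genotypes (12 of 18), Slc35e4 for the difference (10 of 17), Slc16a1 under SB505124 between genotypes (4 of 18) and Slc25a45 for TGFβ in WT (3 of 18). Few reads limit the precision of some members: 22 of 200 had a group mean under 20.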

Other observations

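The folate carriers Slc46a1 and Slc19a1 were both lower in KO-labelled cells under either treatment. The proton-coupled folate transporter Slc46a1 rose with TGFβ from 264 and 270 to 487 and 426 in WT and from 124 and 130 to 247 and 251 in KO-labelled cells (log2 0.77 ± 0.12 and 0.97 ± 0.12, limma), and all KO-labelled libraries lay below all WT ones of the same treatment. The reduced folate carrier Slc19a1 had 2055, 1929, 1803 and 1423 in WT and 885, 1079, 910 and 900 in KO-labelled libraries (log2 -1.03 ± 0.11 under SB505124 and -0.82 ± 0.11 under TGFβ). The thiamine transporter Slc19a2, of the same family, did not pass the test between genotypes under SB505124 (-0.02 ± 0.08, adjusted p = 0.833) and was higher in KO-labelled cells under TGFβ (0.23 ± 0.08, adjusted p = 0.0212). Of the 9 members of the vitamin, choline and haem class, 2 rose and 3 fell with TGFβ in WT, beside 20.2% and 23.2% of all tested genes, and 3 rose and 0 fell in KO-labelled cells, beside 15.1% and 15.8%.

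The nucleotide sugar class, which follows the family number and holds orphans such as Slc35e4, moved in both directions with TGFβ. In WT 5 of 22 members were higher and 7 lower, beside 20.2% and 23.2% of all genes. In KO-labelled cells 4 went each way, beside 15.1% and 15.8%. The GDP-fucose transporter Slc35c1 fell from 1605 and 1515 to 1233 and 1117 in WT and from 1266 and 1293 to 905 and 886 in KO-labelled cells (-0.41 ± 0.09 and -0.51 ± 0.09). The lysosomal sialic acid exporter Slc17a5 had 822, 770, 624 and 617 in WT and 1707, 1662, 1574 and 1512 in KO-labelled libraries (1.08 ± 0.08 and 1.31 ± 0.08). The vesicular monoamine transporter Slc18a1 had 20.3, 23.0, 20 and 17.1 in WT and 105, 69.1, 72.2 and 81.0 in KO-labelled libraries (1.93 ± 0.26 and 1.99 ± 0.26). Its genotypes did not overlap, which the rule for naming genes required.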
